A study of Mus musculus with 36 samples.

Results

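The Sm core protein genes of the mouse were followed across RNA-seq libraries of N2a cells, a mouse neuroblastoma line, that carried the RNA-targeting CRISPR nuclease RfxCas13d or its catalytically dead form dRfxCas13d. The genes were chosen by name, with earlier results of these data known. They are Snrpb, Snrpd1, Snrpd2, Snrpd3, Snrpe, Snrpf, Snrpg and Snrpn, 8 of the 25239 genes in the expression table. A gene was tested when it reached 1 FPKM (fragments scaled to exon length and to the mapped fragments of the library) in at least 2 libraries, which 7 of the 8 members and 13293 genes in all did. Snrpn did not. The 36 libraries formed 18 groups of 2. Each nuclease was expressed with Sik3-S crRNA 1 or 8, Map2 crRNA 1 or 3, Mapt crRNA 4 or 6, Rbfox3 crRNA 5, a non-targeting (NT) crRNA or no crRNA. All cells received plasmids by transient transfection, and GFP-positive cells were sorted 48 h later, so every group shares the transfection and the sort. The labels of the Rbfox3 groups give the crRNA as 5 in the title and as 6 in the transfection field, and the title is followed here. Nothing in the labels ties the 2 libraries of a group to separate transfections, so p-values measure only the spread between these samples, which may be technical. That spread is taken within the groups of 2. The standard error (SE) and p-value of a mean over crRNAs thus leave out the spread between crRNAs.

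Sm proteins are small RNA-binding proteins that close into a ring on the U1, U2, U4 and U5 small nuclear RNAs and on their minor-spliceosome counterparts. The ring forms in the cytoplasm from the preformed subcomplexes D1-D2, E-F-G and D3-B, loaded on the RNA by the SMN complex, and the finished particle is imported into the nucleus, where it takes part in pre-mRNA splicing. Nearly every cell uses the ring, and its subunits are needed together. Snrpn encodes SmN, a close relative of SmB that is made mainly in brain and comes from an imprinted locus.

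The spacers are shown because they set which RNA each crRNA pairs with. Each is written 5′ to 3′ as DNA, and the capitals mark the longest stretch that is exactly complementary to any transcript of the 8 Sm genes in the GENCODE annotation.
NT crRNA: tCACCAGAagcgtaccatactc
Sik3-S crRNA 1: caagcACTGCCAGGtgccacat
Sik3-S crRNA 8: gtcgctctgtgaatCAGGCATC
Map2 crRNA 1: actcTCAATTTTCAcacgtcca
Map2 crRNA 3: gAGCATTGTcaagtgagccaac
Mapt crRNA 4: cttagatAAAAGAAAAggcaga
Mapt crRNA 6: atAAAAGAAAAggcagaggtcc
Rbfox3 crRNA 5: aaATCCATCCtgatacacgacc

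Each of the 7 targeting spacers matched 22 of its 22 bases in its own target. The longest run in any Sm transcript was 10 bases, between Map2 crRNA 1 and Snrpf, and the NT spacer reached 7 bases in Snrpd3. The Sik3-S sites lie in the 3′ UTR of 1 of 7 annotated Sik3 transcripts on chromosome 9, at 46202074 to 46202095 for crRNA 1 and at 46202652 to 46202673 for crRNA 8 (GRCm38, plus strand). The Map2 sites lie on chromosome 1, plus strand, at 66438258 to 66438279 for crRNA 1 and at 66438316 to 66438337 for crRNA 3, in coding exons of 11 and 8 transcripts. The Mapt sites lie in the 3′ UTR of 1 of 12 transcripts on chromosome 11, plus strand, at 104329654 to 104329675 for crRNA 4 and at 104329649 to 104329670 for crRNA 6, and their spacers share 17 bases. The Rbfox3 site lies in a coding exon on chromosome 11, minus strand, at 118496369 to 118496390. Sik3 measured 1.72 and 1.46 FPKM with RfxCas13d and Sik3-S crRNA 1, against 16.1 and 15.9 FPKM with dRfxCas13d and the same crRNA. Sik3, Map2 and Mapt each fell with their own crRNAs, by 2.64 to 3.32 on the log2 scale. They also fell with the targeting crRNAs of the other genes, Mapt by 0.67 to 1.24, Sik3 by 0.47 to 0.86 and Map2 by 0.43 to 0.70, and with NT crRNA Mapt fell by 0.40, Sik3 by 0.28 and Map2 by 0.24. Rbfox3 was near 0 in every group and was not tested.

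The depth of the libraries, estimated from the smallest FPKM steps, was 10330000 to 16420000 fragments with RfxCas13d and 8630000 to 12170000 with dRfxCas13d. Of the low values of single-exon genes, 65.9% to 80.6% in a library came out as whole fragments within 0.1, so these depths are estimates. Of 15 neuroblastoma markers, 11 reached 1 FPKM, and Th, Nefl and Nefm were among those that stayed under it in every library. Summed hepatocyte markers reached 492 FPKM in replicate 1 of RfxCas13d with NT crRNA and at most 4.45 FPKM in any other RfxCas13d library, against 2.56 to 10.8 FPKM with dRfxCas13d. Results that use the NT group are therefore also given without that library. Total RNA per cell was not measured, and in bulk samples fewer cells of a type and less RNA per cell cannot be told apart.

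With targeting crRNAs, transcripts of the 7 tested Sm genes were more abundant with RfxCas13d than with dRfxCas13d. Averaged over the 7 targeting crRNAs, 7 of 7 passed the test, all of them higher (adjusted p under 0.05 by limma with Benjamini-Hochberg adjustment over all tested genes), while 40.6% of all tested genes were called higher and 38.1% lower. Their log2 fold changes ran from 0.36 for Snrpf to 1.30 for Snrpg, with a median of 0.75 against 0.01 over all tested genes. Snrpg alone passed a fold of 2, which 1.65% of tested genes did in that direction. In the summed level, the 8 genes gave 997 to 1279 FPKM (median 1206) in the 14 RfxCas13d targeting libraries and 706 to 801 FPKM (median 767) in the 14 dRfxCas13d targeting libraries. The sums did not overlap.

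**Figure D1:**
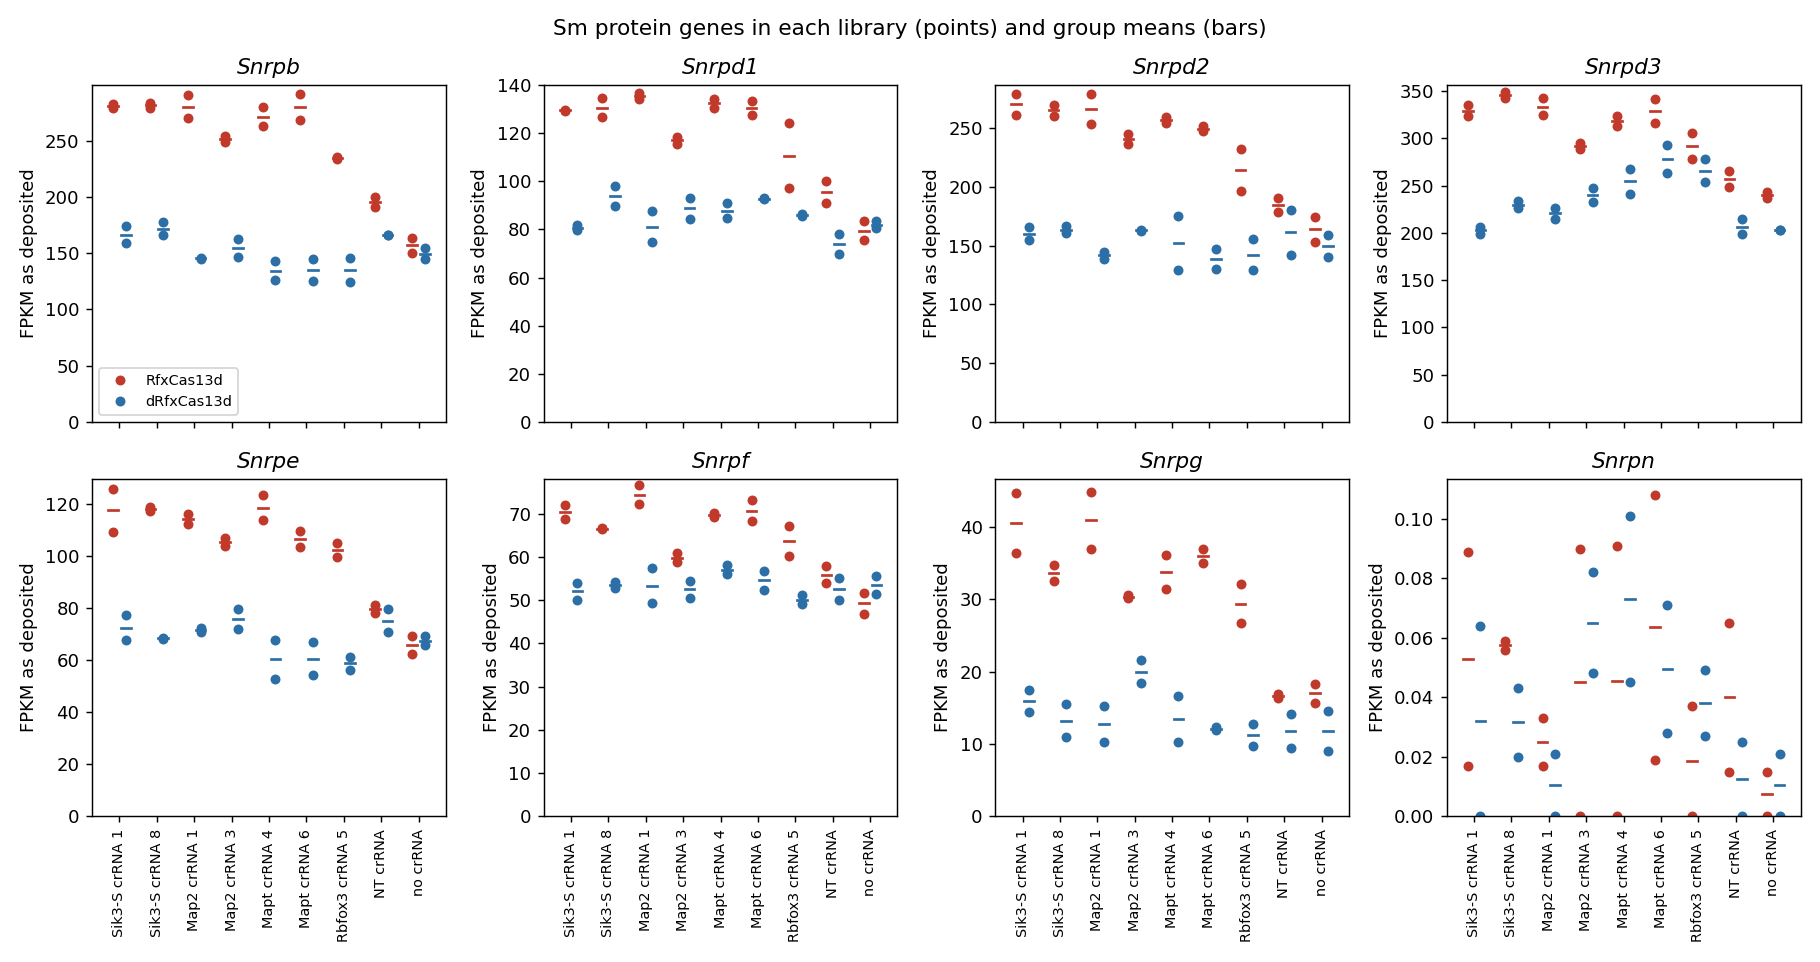
FPKM of the 8 Sm genes in each library (points) with group means (bars), by crRNA, with RfxCas13d left of dRfxCas13d. With the 7 targeting crRNAs the RfxCas13d libraries lie above the dRfxCas13d libraries of the same crRNA for the 7 tested genes, Snrpn reaches at most 0.108 FPKM, and without a crRNA the 2 nucleases lie close together for most genes.

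Snrpb and Snrpd3 encode SmB and SmD3, which join the ring as a pair. Snrpb (chromosome 2, 130171414 to 130179403, minus strand) measured 233 FPKM at the lowest, 274 at the median and 291 at the highest in RfxCas13d targeting libraries, against 124, 146 and 178 FPKM in dRfxCas13d targeting libraries. The groups did not overlap. Snrpb rose by 0.87 on the log2 scale (1.83-fold, SE 0.028, limma adjusted p = 4.47e-18). With sign counted, this was above the change of 97.5% of tested genes. Snrpd3 (chromosome 10, 75517551 to 75537381, plus strand) measured 279, 323 and 349 FPKM with RfxCas13d at the lowest, median and highest, against 199, 237 and 293 FPKM with dRfxCas13d. It rose by 0.43 (1.35-fold, SE 0.024, limma adjusted p = 9.80e-14). Its groups overlapped through 1 dRfxCas13d library, replicate 1 with Mapt crRNA 6, at 293 FPKM.

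Snrpd1 and Snrpd2 encode SmD1 and SmD2, the other pair. Snrpd1 (chromosome 18, 10617775 to 10642079, plus strand) measured 97.1, 129 and 137 FPKM with RfxCas13d and targeting crRNAs, against 74.7, 87.0 and 98.2 FPKM with dRfxCas13d. It rose by 0.55 (1.46-fold, SE 0.032, limma adjusted p = 2.44e-13), and its groups overlapped through 1 RfxCas13d library, Rbfox3 crRNA 5 replicate 2. Snrpd2 (chromosome 7, 19149722 to 19153542, plus strand) measured 196, 254 and 279 FPKM with RfxCas13d, against 129, 155 and 175 FPKM with dRfxCas13d, without overlap. It rose by 0.75 (1.68-fold, SE 0.043, limma adjusted p = 2.03e-13).

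Snrpe, Snrpf and Snrpg encode SmE, SmF and SmG, which form the third subcomplex, and the smallest and the largest change of the set were both found there. Snrpg (chromosome 6, 86371304 to 86379328, plus strand) measured 26.7, 34.9 and 44.8 FPKM with RfxCas13d and targeting crRNAs, against 9.74, 13.6 and 21.6 FPKM with dRfxCas13d. It rose by 1.30 (2.45-fold, SE 0.084, limma adjusted p = 1.88e-12). Snrpe (chromosome 1, 133603871 to 133610291, minus strand) measured 99.4, 111 and 126 FPKM with RfxCas13d, against 52.8, 67.9 and 79.5 FPKM with dRfxCas13d, and rose by 0.76 (1.70-fold, SE 0.037, limma adjusted p = 7.00e-15). Neither gene overlapped between the nucleases. Snrpf (chromosome 10, 93583029 to 93589706, minus strand) measured 58.8, 68.6 and 76.6 FPKM with RfxCas13d, against 49.1, 53.4 and 58.1 FPKM with dRfxCas13d. It rose by 0.36 (1.29-fold, SE 0.027, limma adjusted p = 1.88e-11), and its groups were separate by under 1 FPKM. Snrpf shares 567 exonic bases, 65.9% of its exon length, with Ccdc38 on the opposite strand. Snrpd3 shares 232 with opposite-strand Gucd1. Whether counting used strand is not given in the sources used here, so reads over these stretches cannot be told apart.

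Within each crRNA, both RfxCas13d libraries lay above both dRfxCas13d libraries for all 7 tested members and all 7 targeting crRNAs, a pattern that 17.9% of tested genes showed. All 14 RfxCas13d targeting libraries lay above all 14 dRfxCas13d ones for 5 members, Snrpb, Snrpd2, Snrpe, Snrpf and Snrpg, and for 11.8% of tested genes. By group mean, the 7 RfxCas13d targeting groups were the top 7 of 18 for each tested member. The share of all tested genes with these groups on top was not counted. Of the 17 pairs of neighbours in the order of group means, 2 to 6 per gene had libraries that did not overlap. Most neighbouring groups thus did not differ beyond their spread. The highest group mean belonged to Sik3-S crRNA 8 for Snrpb and Snrpd3, to Map2 crRNA 1 for Snrpd1, Snrpf and Snrpg, to Sik3-S crRNA 1 for Snrpd2 and to Mapt crRNA 4 for Snrpe.

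Taken by crRNA, the 7 tested members passed the test with Sik3-S crRNA 1 (7 of 7 higher, 26.4% of genes higher), Sik3-S crRNA 8 (7 of 7, 26.1%), Map2 crRNA 1 (7 of 7, 27.1%), Map2 crRNA 3 (7 of 7, 23.2%), Mapt crRNA 4 (7 of 7, 27.9%) and Mapt crRNA 6 (7 of 7, 27.5%), and 6 of 7 with Rbfox3 crRNA 5 (26.4%). The exception was Snrpd3, at 0.13 with Rbfox3 crRNA 5 (limma adjusted p = 0.0822). Snrpg changed by 1.67 with Map2 crRNA 1 and by 0.59 with Map2 crRNA 3. Snrpg passed a fold of 2 with Sik3-S crRNA 1 (1 of 7 members, 1.83% of genes), Sik3-S crRNA 8 (1 of 7, 1.87%), Map2 crRNA 1 (1 of 7, 2.33%) and Rbfox3 crRNA 5 (1 of 7, 1.72%). Snrpb and Snrpg both passed it with Mapt crRNA 4 (2 of 7, 2.32%) and Mapt crRNA 6 (2 of 7, 2.08%), where Snrpb reached 1.02 and 1.05, and it gave 0.71 to 0.99 with the other crRNAs. Map2 crRNA 3 gave 0 of 7 past that fold (0.873% of genes), although 7 of 7 passed the limma test there. Differences between single crRNAs were not tested. With Map2 crRNA 3, Snrpf at 0.20 and Snrpg at 0.59 had limma adjusted p of 0.0273 and 0.0339, and leaving out any 1 of its 4 libraries ended the Snrpg call, at 0.48 to 0.70. Leaving out either RfxCas13d library or dRfxCas13d replicate 1 ended that of Snrpf, at 0.14 to 0.22. Without dRfxCas13d replicate 2, Snrpd3 with Mapt crRNA 6 was 0.16, against 0.25, and no longer passed, and without RfxCas13d replicate 1, Snrpd1 with Rbfox3 crRNA 5 was 0.17, against 0.35, and no longer passed. Snrpd3 with Rbfox3 crRNA 5 passed without RfxCas13d replicate 2 or without dRfxCas13d replicate 1, at 0.20 in each. Removal of the length trend ended the Snrpf call with Sik3-S crRNA 8, Map2 crRNA 3, Mapt crRNA 4 and 6 and Rbfox3 crRNA 5, at 0.06 to 0.16. It also ended the calls of Snrpg with Map2 crRNA 3 (0.43), Snrpd3 with Mapt crRNA 6 (0.15) and Snrpd1 with Rbfox3 crRNA 5 (0.19), so that 4 of 7 members passed with Rbfox3 crRNA 5 and 5 of 7 with Map2 crRNA 3. Quantile normalization ended the Snrpd3 call with Map2 crRNA 3 (0.12), Mapt crRNA 4 (0.07) and Mapt crRNA 6 (-0.01) and the Snrpf call with Map2 crRNA 3 (0.12). Without a filter on low values, Snrpg with Map2 crRNA 3 did not pass (limma adjusted p = 0.0643).

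**Figure D2:**
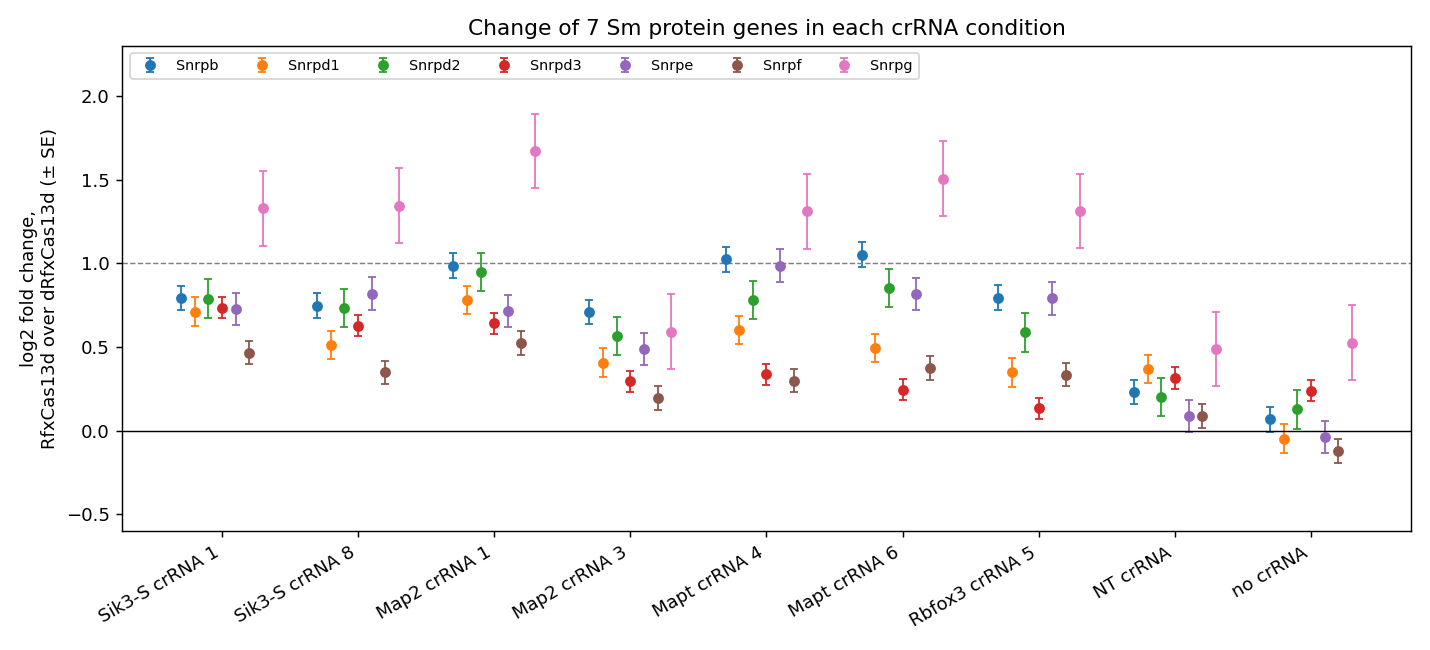
Log2 fold change of RfxCas13d over dRfxCas13d for each tested Sm gene and condition, from the limma fit on log2(FPKM + 1), with bars for the standard error and a dashed line at a fold of 2. Snrpg reaches 1.67 with Map2 crRNA 1, Snrpd3 with Rbfox3 crRNA 5 lies at 0.13, and Snrpg lies at 0.49 with NT crRNA and 0.53 with no crRNA.

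Without a targeting crRNA, fewer members passed. With NT crRNA, Snrpb measured 191 and 199.6 FPKM with RfxCas13d, against 166 and 166 FPKM with dRfxCas13d, and 3 of 7 members passed the test, Snrpb (0.23), Snrpd1 (0.37) and Snrpd3 (0.31), all higher, as were 11% of genes. Without RfxCas13d NT replicate 1, the library with hepatocyte markers, only Snrpd3 of these passed. Without dRfxCas13d NT replicate 1 the count was also 1, again Snrpd3, and the Snrpb call was lost without any 1 of the 4 libraries, at 0.20 to 0.26. With no crRNA, 1 of 7 passed, Snrpd3 at 0.24 (limma adjusted p = 0.0278), where 2.52% of genes were higher. Snrpd3 measured 237 and 243 FPKM with RfxCas13d and no crRNA, against 203 and 203 FPKM with dRfxCas13d. The call was lost without any 1 of these 4 libraries. Not every member had its smallest values here. Its fold change of 0.31 with NT crRNA put Snrpd3 above its 0.29 with Map2 crRNA 3, 0.25 with Mapt crRNA 6 and 0.13 with Rbfox3 crRNA 5, and Snrpd1 gave 0.37 with NT crRNA and 0.35 with Rbfox3 crRNA 5. Snrpg gave 0.49 with NT crRNA and 0.53 with no crRNA, near its 0.59 with Map2 crRNA 3, and did not pass in either (limma adjusted p = 0.124 and 0.202).

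The difference between the targeting and NT conditions was tested as an interaction. Of the 7 members, 5 had a larger RfxCas13d over dRfxCas13d change with targeting crRNAs than with NT crRNA, where 15.6% of genes did. These were Snrpb (0.64, limma adjusted p = 2.71e-06), Snrpd2 (0.55, 0.00161), Snrpe (0.68, 3.82e-05), Snrpf (0.28, 0.00809) and Snrpg (0.81, 0.0129). For Snrpd1 the difference was 0.18 (limma adjusted p = 0.134) and for Snrpd3 it was 0.12 (limma adjusted p = 0.206). Without RfxCas13d NT replicate 1, or without dRfxCas13d NT replicate 1, 3 members passed, and Snrpf and Snrpg did not. Without RfxCas13d Rbfox3 replicate 2, Snrpd1 passed as well, at 0.21. The NT change minus the no-crRNA change passed for 0 of 7 members by limma, where 1.36% of genes passed as higher. Snrpd1, at 0.42 (limma adjusted p = 0.0670), was the 1 member of 7 with an unadjusted p under 0.05. It passed without either RfxCas13d Rbfox3 library, at 0.42 and 0.41. Without RfxCas13d NT replicate 1 the count was 0, with Snrpd1 at 0.35. After removal of a trend of fold change with exon length, Snrpf (0.07) and Snrpg (0.65) no longer passed in the interaction.

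Exon length was related to the change over all genes. It was counted over the joined exons of all GENCODE transcripts of a gene, so it can exceed the length of single transcripts. By this count Snrpd3 has 3442 bases and Snrpg 1570, against median transcripts of 665 and 560 bases, while Snrpf has 861 by both. The fit with the length trend removed used the same joined lengths. In the mean over targeting crRNAs, genes of 500 to 1000 exonic bases, which include Snrpf, had a median log2 fold change of 0.11, with 45.1% higher and 25.3% lower. Genes of 1000 to 2000 bases, which include Snrpb, Snrpe and Snrpg, had a median of 0.21, with 57.9% higher. Genes of 2000 to 4000 bases, which include Snrpd1, Snrpd2 and Snrpd3, had a median of 0.12, with 53.1% higher. Genes of 4000 bases or more had a median of -0.10, with 29.6% higher. Its part in the result was not tested beyond the fit with the length trend removed, in which 7 of 7 members remained higher. That fit lowered Snrpf to 0.18, against 0.36, and left the other members at 0.34 to 1.09. Quantile normalization lowered Snrpd3 to 0.17, against 0.43, Snrpd1 to 0.36, against 0.55, and Snrpd2 to 0.49, against 0.75, and 7 of 7 remained higher there as well.

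Within each nuclease, targeting libraries were compared with the NT libraries of the same nuclease. With RfxCas13d, 7 of 7 members were higher with targeting crRNAs than with NT crRNA, against 20.7% of genes, led by Snrpg at 1.04 (limma adjusted p = 3.58e-05) and Snrpe at 0.51 (limma adjusted p = 9.06e-06). Snrpg measured 26.7 to 44.8 FPKM with targeting crRNAs, against 16.4 and 16.9 FPKM with NT crRNA. Without RfxCas13d NT replicate 1, 7 of 7 passed, with Snrpg at 1.02 and Snrpe at 0.53. With dRfxCas13d, 2 of 7 were higher, Snrpd1 (0.24, limma adjusted p = 0.0233) and Snrpd3 (0.22, limma adjusted p = 0.00657), against 3.97% of genes. Snrpb gave -0.16 and Snrpe -0.17, and neither passed the test (limma adjusted p = 0.0714 and 0.153). Without dRfxCas13d NT replicate 2 the count was 0, and without replicate 1 it was 1, Snrpd3. Snrpb passed as lower, at -0.17 to -0.18, without any 1 of 3 dRfxCas13d libraries: Rbfox3 replicate 2, Mapt crRNA 4 replicate 1 or Mapt crRNA 6 replicate 2. For dRfxCas13d with NT crRNA against no crRNA, 0 of 7 passed by limma, where 1.76% of genes passed as higher. Snrpb, at 0.16, was the 1 member of 7 with an unadjusted p under 0.05.

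The balance between Snrpd3 and Snrpb, which share a subcomplex, differed among dRfxCas13d libraries. Among the dRfxCas13d groups, Snrpd3 was 241 to 293 FPKM with Mapt and Rbfox3 crRNAs, while Snrpb was 124 to 146 FPKM in the same libraries. The ratio of Snrpd3 to Snrpb was 1.69 to 2.34 (median 1.97) in those 6 dRfxCas13d libraries. In the 8 dRfxCas13d libraries with Sik3-S and Map2 crRNAs it was 1.14 to 1.69 (median 1.40). In the 14 RfxCas13d targeting libraries it was 1.09 to 1.30 (median 1.20). With NT crRNA it was 1.25 to 1.39 with RfxCas13d and 1.19 to 1.29 with dRfxCas13d, and with no crRNA it was 1.48 to 1.58 with RfxCas13d and 1.31 to 1.41 with dRfxCas13d. The grouping of crRNAs was made after the values were seen, so no test is given. Of the summed Sm level, Snrpd3 held 27.1% ± 0.77 with RfxCas13d and targeting crRNAs and 31.7% ± 3.8 with dRfxCas13d (SD, n = 14 each), and Snrpb held 22.7% ± 0.69 and 19.5% ± 2.0 in the same groups.

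**Figure D3:**
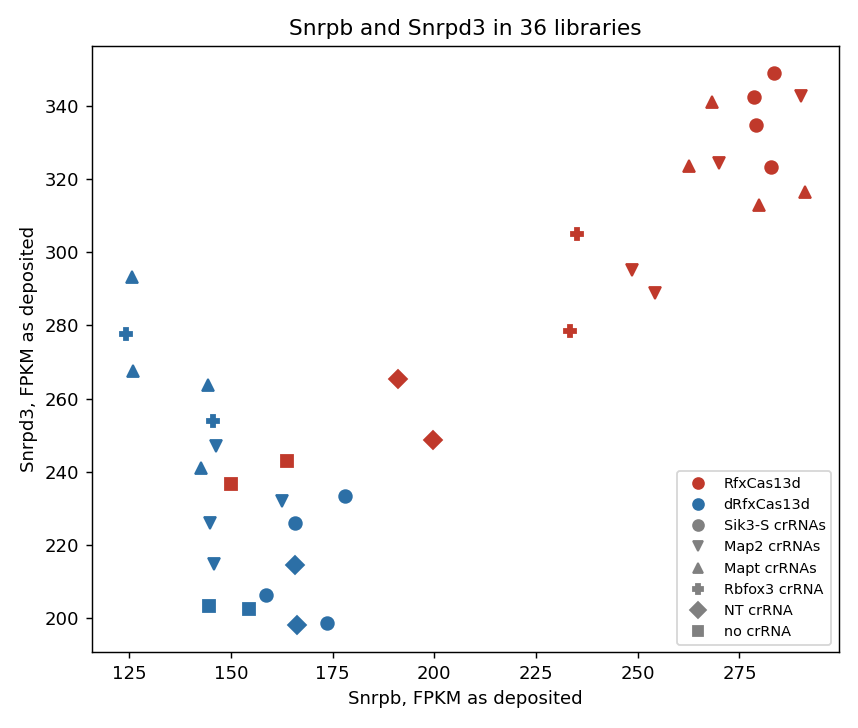
FPKM of Snrpd3 against Snrpb in each of the 36 libraries, by nuclease and crRNA. The dRfxCas13d libraries with Mapt and Rbfox3 crRNAs have a ratio of 1.69 to 2.34, above the 1.09 to 1.30 of the RfxCas13d targeting libraries.

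Snrpn was at or near 0 with both nucleases. It was 0 to 0.108 FPKM in 18 RfxCas13d libraries, with 4 listed at 0, and 0 to 0.101 FPKM in 18 dRfxCas13d libraries, with 4 listed at 0. At its GENCODE length this is at most about 2.64 fragments with RfxCas13d and 2.10 with dRfxCas13d, so no fold change is given. Snurf, which shares 216 exonic bases with Snrpn, was listed at 0 in every library.

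Other genes of the Sm pathway are given from lists, all for the mean over the 7 targeting crRNAs. The lists were chosen with earlier results of these data known, so their medians are a description only. Of 8 LSm genes, which encode the related rings that act on U6 RNA and in mRNA decay, 8 passed as higher and 0 as lower by limma, with a median of 0.35. These counts, and those of the lists that follow, stand beside 40.6% higher and 38.1% lower over all tested genes. Lsm7 rose by 1.01 and Lsm4 by 0.62. Of 13 ring assembly genes, 9 were higher and 1 lower, with a median of 0.21. Gemin6, a subunit of the SMN complex, rose by 0.53, and Clns1a, a chaperone of Sm proteins, rose by 0.34, while Smn1 gave -0.01 and Prmt5, which methylates Sm proteins, -0.04, neither past the test. Of 12 genes for U2-specific proteins, 10 were higher and 1 lower, with a median of 0.19, led by Phf5a (1.06) and Sf3b5 (1.07), both of the SF3B complex. Of 17 genes for proteins of the U5 and U4/U6 particles, 11 were higher and 4 lower, with a median of 0.08. Snrnp27 fell by 0.50 and Snu13 rose by 0.89. All 3 U1-specific genes were higher, with a median of 0.28. Of 9 genes for export, capping and import, 5 were higher and 3 lower, with a median of 0.07. The 33 ribosomal genes of the small subunit, used for comparison, had 26 higher and 5 lower, with a median of 0.40.

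**Figure D4:**
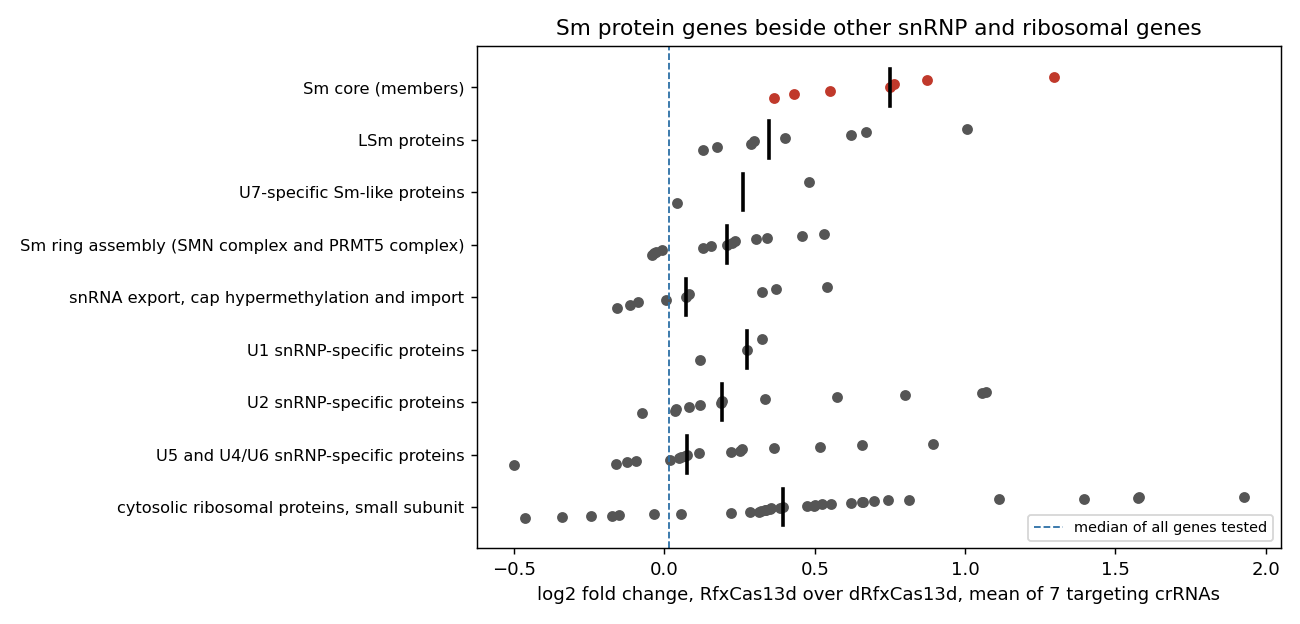
Log2 fold change of RfxCas13d over dRfxCas13d, averaged over the 7 targeting crRNAs, for each Sm gene and each gene of the other lists. The median of each list is marked. Members and lists were chosen with earlier results of these data known. The Sm genes have a median of 0.75, against 0.35 for the LSm genes, 0.40 for the small-subunit ribosomal genes and 0.01 over all tested genes.

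Likeness was measured as Pearson's correlation of a gene's log2 level with the mean standardised log2 level of the 7 tested members. The genes most like them over all 36 libraries were Rpl41, Hint1 and Cox7b, with correlations of 0.986, 0.986 and 0.986, out of 8960 genes with a mean of at least 5 FPKM. These libraries share the nuclease and crRNA groups, so the values are a description only. In the 18 dRfxCas13d libraries alone the members did not all move together, with a median correlation of 0.24 over their 21 pairs, of which 9 were negative, so no likeness to their mean is given there.

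Among the 5 members with a RefSeq promoter entry (GRCm38.p6), a window of 250 bases before and 50 after the start held the motif CCAAT, on either strand, in 3 of them, against 37.4% of 32851 windows. In GENCODE the first exons of these members begin upstream of the RefSeq starts, so each window is exonic in part. CCGGAAG stood in 2 and 8.86% of all windows, GGGCGG in 2 and 35.7%, the NRF1 motif in 1 (Snrpd2) and 4.6%, and TGACGTCA in 1 (Snrpg) and 1.79%. TATAAA, AANATGGC and CACGTG stood in 0 of the 5, against 13.6%, 6.05% and 7.15%. GENCODE transcripts of other genes, overlapping genes among them, matched each of the 8 members at 90% identity or more over at least 100 bases. There was 1 such gene each for Snrpd1 and Snrpd3, and 6 each for Snrpf and Snrpn. That of Snrpd3 was Gucd1, which overlaps it on the opposite strand. Those of Snrpf include Ccdc38 and 4933408J17Rik, which overlap it in the same way. For Snrpb, Snrpd1, Snrpd2, Snrpe and Snrpg, 0 of the matching genes had an entry in the expression table. For Snrpd3 it was 1, and for Snrpf and Snrpn 2 each. Reads may be split with copies or with overlapping genes, which was not tested.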

How the data were processed

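RNA-seq of 36 N2a libraries was analysed. FPKM values were deposited by the authors, who per the labels and methods used Trim Galore for trimming, Subread for alignment to mm10, featureCounts for gene counting and DESeq2 for differential genes. For these tools, the version, annotation and strand setting were not given in the sources used here. Depth is known only as an estimate.

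FPKM were scaled by median-of-ratios factors (0.976 to 1.027), transformed as log2(FPKM + 1) and modelled by group means over all 36 libraries (limma 3.58.1 with an intensity trend, R 4.3.3). Genes with at least 1 deposited FPKM in at least 2 libraries were tested. A first fit filtered scaled FPKM, which did not change any call for the members. Fold changes are on the log2(FPKM + 1) scale, which understates low genes. Calls have Benjamini-Hochberg adjusted p under 0.05. Annotation was GENCODE vM21. The fit was run on simulated data in which few genes changed, unlike these data, so that run checks the code and not the calls given here. Alternatives were the pseudocount, filter, scaling, replicate block, length trend, 4-library fits and leaving out each library.

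Members and lists were chosen with earlier results of these data known. Named list genes are among the 4 with the smallest p per list, apart from Smn1, Prmt5 and Snrnp27, which were named after their values were seen.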

Additional observations from a re-analysis of the deposited data

Results flagged for a closer look

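The difference between the RfxCas13d over dRfxCas13d change with targeting crRNAs and that with NT crRNA was tested as an interaction. It was passed by 5 Sm genes, all higher, and by 15.6% of all tested genes in that direction. The values on the log2 scale were 0.64 for Snrpb, 0.55 for Snrpd2, 0.68 for Snrpe, 0.28 for Snrpf and 0.81 for Snrpg. Without dRfxCas13d NT replicate 1, Snrpf was 0.21 and Snrpg 0.54. With the length trend removed, Snrpf was 0.07 and Snrpg 0.65, and 3 members passed. Replicate 1 of RfxCas13d with NT crRNA carried summed hepatocyte markers of 492 FPKM, and its part in these values was not tested beyond the fit without it, in which 3 members passed.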

How the results depend on the processing

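The calls for the 7 tested Sm genes in the mean over targeting crRNAs (7 of 7) did not change under any alternative run. Quantile normalization gave 0 members with no crRNA, against 1, and turned Snrpd3 with Mapt crRNA 6 to -0.0081 (limma adjusted p = 0.941), against 0.25. With the length trend removed, and with the replicate block and the length trend removed together, 3 members passed in the targeting minus NT interaction, against 5. A filter at a mean of 5 FPKM gave 1 member in the NT minus no crRNA interaction, against 0. Leaving out each library in turn gave 0 to 1 members with no crRNA, 1 to 3 with NT crRNA, 3 to 6 in targeting minus NT, 0 to 1 in NT minus no crRNA and 0 to 3 in dRfxCas13d targeting against NT. The cause of these changes was not tested. Of the values of single members under the alternatives, 1171 stayed on their side of the threshold, 43 no longer passed, 3 newly passed and 1 that had passed turned negative. Some values that did not pass also changed sign, among them Snrpd3 under quantile normalization, at -0.04 with Rbfox3 crRNA 5, against 0.13, and at -0.08 in targeting minus NT, against 0.12. The replicate block alone left 7 of 7 in the mean over targeting crRNAs and 5 of 7 in targeting minus NT. Same-crRNA groups correlated at -0.032 to 0.060 in their replicate differences, so the numbers did not pair libraries. Over all genes, the 4-library fit with no crRNA called 122 genes, against 713. Depth limits Snrpn, at most 2.64 fragments per library.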

Other observations

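Small nuclear RNA entries were measured in the same table, from libraries made with an mRNA-seq kit. Rnu12, a minor-spliceosome RNA (U12) that carries an Sm ring, measured 8.98 to 29.9 FPKM in RfxCas13d targeting libraries, against 0 to 3.50 FPKM in dRfxCas13d targeting libraries, and rose by 3.21 (limma adjusted p = 3.67e-13). Rnu11 measured 3.37 to 13.4 FPKM with RfxCas13d, against 0 to 1.92 FPKM with dRfxCas13d, and rose by 2.71 (limma adjusted p = 1.19e-10). Both RNAs were as low as 0 FPKM in dRfxCas13d targeting libraries, so the size of these changes is uncertain. Rnu6 was listed at 0 in all but 1 of the targeting libraries, and no change is given for it. At the Snrpn locus, Mkrn3 rose by 0.85 and Ube3a fell by 0.06 in the mean over targeting crRNAs.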
